A study of Mus musculus with 22 samples.

Results

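The comparison set the cerebral cortex of Ts1Cje mice, a mouse model of Down syndrome, against that of wild-type (WT) littermates across all measured genes. It used the 11 arrays labelled as cortex, 6 of Ts1Cje and 5 of WT animals, out of 22 arrays in the series, and members were chosen by that tissue label alone. Each array came from 1 animal, and the 11 others were hippocampus arrays of the same animals. All animals were females aged 8 to 10 weeks from the same crosses, in which Ts1Cje males had been bred to C57Bl/6J females for several generations. WT animals carried no extra chromosome segment, and no animal received a treatment or a transgene. The study asked which genes the extra segment affects in the brain, and each gene is given here as a log2 signal, so that a difference of 1 is a doubling of signal.

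Ts1Cje mice carry an additional copy of the distal end of mouse chromosome 16, the region that matches much of human chromosome 21. The extra piece sits on the end of chromosome 12 through a translocation, and the line is known to have lost a few genes at that end of chromosome 12. It arose in a line made to disrupt Sod1, which encodes the cytosolic superoxide dismutase, and the break on chromosome 16 lies next to that gene. Genes in the extra piece are present in 3 copies in Ts1Cje and 2 in WT, so RNA made in proportion to copy number would stand at 1.5-fold, a log2 difference of 0.585. The bulk tissue holds neurons, glia and vessels together, and more cells of a type cannot be told apart from more RNA per cell.

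The cortex arrays carried the labelled tissue in their markers, since 12 of 17 markers of cortical projection neurons were higher in cortex than in hippocampus after each array was centred on its median, against 0 of 14 markers of hippocampal neurons. All 13 markers of striatal neurons were also higher in cortex, by a median log2 of 1.72. The striatum lies beneath the cortex and its markers are defined by receptors such as Drd1 and Drd2. Arrays of WT animal 60 and Ts1Cje animal 64 stood apart: their values correlated with those of the other cortex arrays at a median r of 0.968 and 0.977, against 0.996 to 0.997 for the 9 others. Their log2 values spread less over genes (SD 1.86 and 1.95, against 2.17 to 2.22), so most bright genes read lower and most dim genes higher on both, although the bright Sod1 read higher. One label of animal 60 gives its number as 61, and the number in the array title was used. Counts are therefore given with all 11 arrays, without animals 60 and 64, with all 11 arrays weighted by their fit to the rest (array weights 0.0559 and 0.0753 for animals 60 and 64, 0.807 to 3.70 for the others), and, since each animal also gave a hippocampus array, with the animal as a replicate block over 22 arrays.

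Dnah11 was the 1 gene of 20239 tested that passed with all 11 arrays (limma adjusted p under 0.05, 0.00494% of genes tested). In what follows, a gene is said to rise or fall only where it passed this threshold in the fit named. Without animals 60 and 64, 32 genes passed, 30 higher (0.148% of genes tested) and 2 lower (0.00988%) in Ts1Cje, or 0.158% in all, and 27 of these lay in the extra segment. With array weights 50 genes passed (0.247%), 45 higher (0.222%) and 5 lower (0.0247%), with 38 of them in the segment and 4 on distal chromosome 12, and 31 of the 32 were among them. With the animal as a replicate block 23 genes passed (0.114%), 21 higher (0.104%) and 2 lower (0.00988%), with 18 segment members and 3 distal chromosome 12 genes among them. An unadjusted p under 0.05 was found for 263 genes with all arrays (1.3%) and 1208 without animals 60 and 64 (5.97%). Among genes that do not differ, a share of 0.05 would reach it by chance. The first share lies below that level and the second near it. The number of arrays limits the precision of each of these counts.

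The segment was taken as the chromosome 16 genes distal to Sod1 in the gene order of the RefSeq assembly GRCm38.p6, of which 74 were measured, including 69 of 73 protein-coding genes. Their median log2 difference was 0.34, a fold of 1.27, with quartiles of 0.05 and 0.46, and 58 of 74 were above 0, against a median of -0.00 and 48.5% above 0 over all tested genes. In 24 of the 74 the lowest Ts1Cje value exceeded the highest WT value, a separation found in 47 genes in all (0.232% of genes tested), and none of the 74 separated the other way. The separated members numbered 44 without animal 64 alone. Without animals 60 and 64 they numbered 45, against 276 genes in all (1.36%). In that setting 27 members passed as higher, against 30 genes in all (0.148%). The mean over the 74 members was 8.02, 8.00, 8.03, 8.01 and 8.02 in WT animals 60, 62, 65, 95 and 98, and ran from 8.25 through a median of 8.27 to 8.33 in Ts1Cje. These means did not overlap between genotypes. The arrays of animals 60 and 64 did not stand apart in them, but did so in bright and dim members taken separately. Over members brighter than the median gene animal 60 read 9.04 (other WT 9.33 to 9.36) and animal 64 read 9.47 (other Ts1Cje 9.70 to 9.76). Over the dimmer members animal 60 read 6.51 (other WT 6.00 to 6.12) and animal 64 read 6.48 (other Ts1Cje 6.08 to 6.24). Animal numbers fall into a series from 60 to 65 and one from 87 to 98, whose meaning the labels do not give, and the median of the 74 members was 0.30 within the first and 0.31 within the second.

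The members differed by signal strength. The 44 members brighter than the median gene had a median log2 difference of 0.43, a fold of 1.35, ranging from 0.11 to 0.59, and all 44 were above 0. The 30 dimmer members had a median of -0.00, ranging from -0.18 to 0.51, with 14 above 0 and none separated between genotypes, so that all 24 separated members were among the brighter 44. Of these 30, 6 had an unadjusted p under 0.05, all higher (0.889% of genes tested). Without animals 60 and 64 the dimmer members had a median of 0.07 with 20 above 0. Over all tested genes the dimmest tertile had a median of -0.07, the middle one 0.00 and the brightest 0.03, and segment members in the same tertiles stood at -0.01, 0.33 and 0.43. Without animals 60 and 64, 25 of the 44 brighter members rose and 40 separated, against 2 and 5 of the 30 dimmer ones. The 2 were Dnajc28, of the family of DnaJ co-chaperones, at 0.51 with all arrays and 0.58 ± 0.0581 without those animals (SE; limma adjusted p = 0.00284), and Mis18a, which helps load the centromeric histone, at 0.45 and 0.48 ± 0.0689 (SE; limma adjusted p = 0.028). Of the brighter 44, only Ifnar2 reached the log2 difference of 0.585 with all arrays, and how true to scale the arrays are for folds was not tested.

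**Figure D1:**
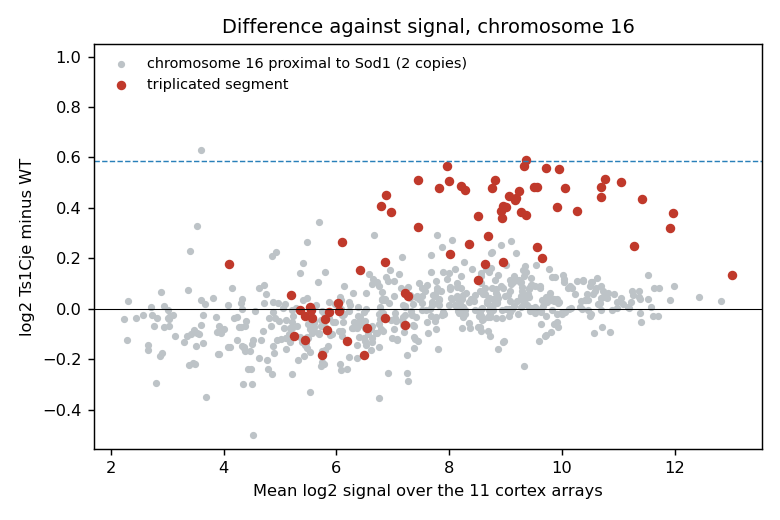
Log2 difference (Ts1Cje minus WT, 11 cortex arrays) of each chromosome 16 gene against its mean log2 signal, with the 74 segment members in red, the 580 genes proximal to Sod1 in grey, and a dashed line at 0.585, the log2 of 1.5. Bright segment members sit around 0.43, above the grey genes of the same brightness, while the dim ones range from -0.18 to 0.51, with a median of -0.00.

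Along the chromosome the difference began at Sod1 itself, which stood at 0.62, and continued in the first genes past it. The first 15 measured genes had a median of 0.36, the next 15 of 0.44, and the following groups of 0.26, 0.29 and, over the last 14 genes, 0.15. These groups were not matched for signal strength, and the last one held dim members such as Mx1 and Tmprss2 (mean log2 signals of 4.10 and 5.74). Whether the difference changes with position apart from signal strength was not tested. On the proximal side, where both genotypes have 2 copies, the 580 measured genes had a median of -0.00 with 285 above 0. None of them passed or separated between genotypes with all arrays. Without animals 60 and 64 none passed, and 6 of the 580 separated higher and 2 lower (1.36% and 0.677% of genes tested). The 20 genes just proximal to Sod1 had a median of -0.07 (0.05 without animal 60) with 3 above 0, and 2 of these 20 were brighter than the median gene. Many of them encode keratin-associated proteins of hair, which brain does not use. The nearest well-expressed proximal neighbour, Tiam1, which encodes an activator of the Rac switch protein, stood at 0.08 ± 0.0821 (SE; limma adjusted p = 1) and at 0.01 without animal 60. The WT values of Tiam1 were 9.79, 10.00, 10.14, 10.22 and 10.17, against a lowest, median and highest Ts1Cje value of 10.02, 10.16 and 10.20. The genotypes overlapped.

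**Figure D2:**
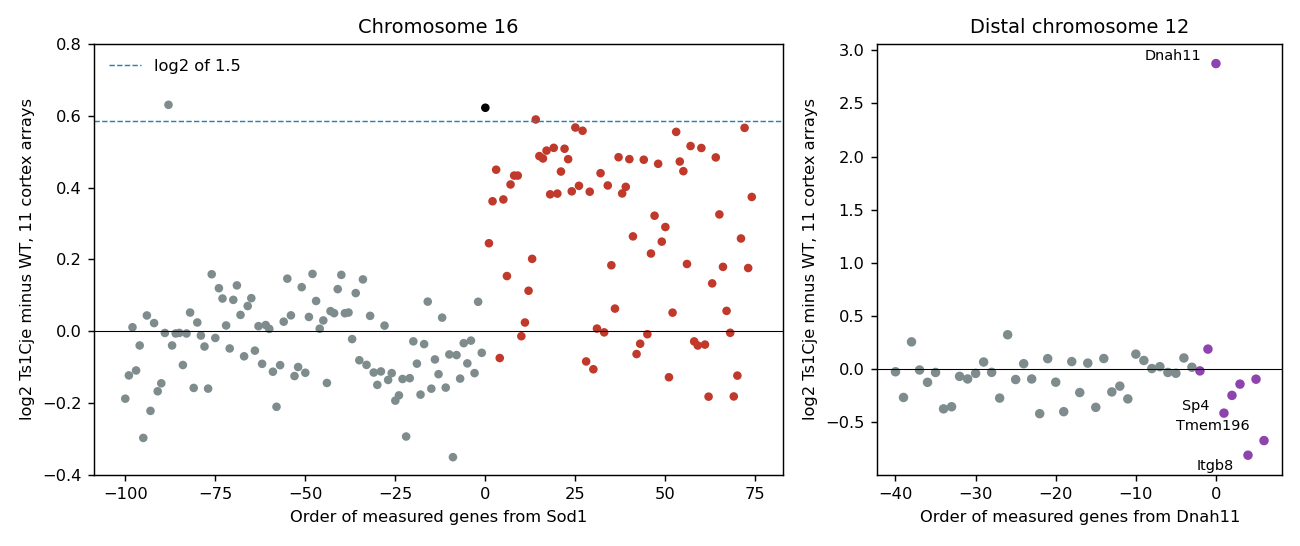
Log2 difference (Ts1Cje minus WT, 11 cortex arrays) by gene order, left for the end of chromosome 16 counted from Sod1 (black; segment members red, proximal genes grey, dashed line at 0.585) and right for chromosome 12 counted from Dnah11 (genes from Rapgef5 to the end in purple). On chromosome 16 the differences move from around 0 to 0.62 at Sod1. Within the first 30 genes past it, medians are 0.36 and 0.44. On chromosome 12 Dnah11 stands at 2.88 with Itgb8 at -0.81 and Tmem196 at -0.67.

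The segment carries a cluster of 4 receptor genes, Ifnar1 and Ifnar2 for type I interferon, Ifngr2 for interferon gamma and Il10rb for interleukin 10 and its relatives. These chains sit in the cell membrane and pass the cytokine signal to kinases inside the cell and on to transcription factors. Their median log2 difference was 0.50, and 2 of the 4 separated the genotypes with all arrays, against 0.232% of genes tested. Ifngr2 read 10.45, 10.88, 10.84, 10.81 and 10.89 in WT animals 60, 62, 65, 95 and 98, and 11.17, 11.26 and 11.45 as the lowest, median and highest of Ts1Cje, a difference of 0.50 ± 0.0894 (SE; limma adjusted p = 0.34). Ifnar1 read 8.99, 9.40, 9.39, 9.29 and 9.41 in WT and 9.46, 9.81 and 9.92 in Ts1Cje, a difference of 0.48 ± 0.103 (SE; limma adjusted p = 0.587). Both genes separated the genotypes, and WT animal 60 was the lowest of all in each. Without animals 60 and 64 all 4 receptors rose, against 0.148% of genes tested. Ifngr2 rose by 0.44, Ifnar1 by 0.47, Il10rb by 0.45 and Ifnar2 by 0.55 (limma adjusted p = 0.00591, 0.00284, 0.00484 and 0.0387). With the replicate block Ifngr2 and Ifnar1 rose (limma adjusted p = 0.00648 and 0.0114).

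Among the 5 signalling members, Dyrk1a encodes a kinase that phosphorylates NFAT transcription factors and Rcan1 an inhibitor of calcineurin, the phosphatase that acts on the same factors. Dyrk1a read 11.15, 11.10, 11.16, 11.16 and 11.15 in WT and 11.34, 11.39 and 11.43 in Ts1Cje, a difference of 0.25 ± 0.0488 (SE; limma adjusted p = 0.549). Rcan1 read 8.78, 9.05, 8.92, 8.94 and 9.05 in WT and 9.30, 9.36 and 9.56 in Ts1Cje, a difference of 0.44 ± 0.0719 (SE; limma adjusted p = 0.216). Neither gene overlapped between genotypes. Both rose without animals 60 and 64, by 0.26 and 0.41 (limma adjusted p = 0.0239 and 0.026), and with the replicate block (limma adjusted p = 0.0171 and 0.0014). The kinase gene Hunk separated with all arrays at 0.36 and passed in none of these fits, and Ripk4 and Sh3bgr, both dim, stood at -0.12 and -0.04. Outside the segment, 15 measured genes of calcineurin and NFAT had a median of 0.00, ranging from -0.08 to 0.10, with 9 above 0 and none called in any of these fits. Rcan2 and Rcan3, the paralogues of Rcan1 on other chromosomes, stood at 0.09 and 0.10, at 0.03 for Rcan2 without animal 60, and at 0.06 for Rcan3 without animal 62.

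The 12 members of endocytosis, trafficking and protein handling were all above 0, with a median of 0.42. Of these, 8 separated the genotypes, against 0.232% of genes tested. Synj1 encodes synaptojanin, a lipid phosphatase that uncoats synaptic vesicles, and had the lowest p of the segment. It read 11.03, 11.20, 11.26, 11.20 and 11.18 in WT and 11.50, 11.63 and 11.65 in Ts1Cje, a difference of 0.43 ± 0.0599 (SE; limma adjusted p = 0.0921). The lowest Ts1Cje value, that of animal 64, lay above the highest WT value. Synj1 rose by 0.42 without animals 60 and 64 (limma adjusted p = 0.00102) and by 0.43 with the replicate block (0.000223). Itsn1, a scaffold of clathrin-coated pits, stood at 0.39, Get1, which inserts tail-anchored proteins into membranes, at 0.52, and both rose with the replicate block (limma adjusted p = 0.0114 and 0.00413). Vps26c, an endosomal sorting gene, rose by 0.48 without animals 60 and 64 (limma adjusted p = 0.00102). Of the 12 members 5 rose in that setting (0.148% of genes tested), 11 with array weights (0.222%) and 7 with the replicate block (0.104%). The 28 genes of the synaptic vesicle cycle measured outside the segment had a median of 0.01 with 18 above 0 and none called.

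Dscam, which encodes an adhesion molecule of neurons, differed from most of the 11 channel, transporter and adhesion members. It read 10.06, 10.56, 10.48, 10.47 and 10.59 in WT and 10.74, 10.93 and 11.03 in Ts1Cje, a difference of 0.48 ± 0.0979 (SE; limma adjusted p = 0.549). It did not overlap between genotypes and rose by 0.43 without animals 60 and 64 (limma adjusted p = 0.00284). The median of the 11 was 0.01 and 6 were above 0. Only 3 of the 11 were brighter than the median gene, Dscam, Kcnj6 and Slc5a3, at 0.48, 0.29 and 0.40. Kcnj6, a G protein gated potassium channel, read 8.53, 8.69, 8.37, 8.39 and 8.70 in WT and 8.70, 8.85 and 8.89 in Ts1Cje, a difference of 0.29 ± 0.0776 (SE; limma adjusted p = 1), and passed in none of these fits. Slc5a3, the myo-inositol transporter, rose by 0.35 without animals 60 and 64 (limma adjusted p = 0.0389). The 21 potassium channel genes measured outside the segment had a median of -0.01, with 10 above 0.

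The 9 transcription factor members, of which 5 were brighter than the median gene, had a median of 0.18, below the 0.34 of the whole segment. Ets2 stood out among them, reading 9.27, 9.80, 9.75, 9.65 and 9.73 in WT and 9.98, 10.20 and 10.36 in Ts1Cje, a difference of 0.56 ± 0.107 (SE; limma adjusted p = 0.535). It separated the genotypes and rose by 0.50 without animals 60 and 64 (limma adjusted p = 0.00824). Olig1 and Olig2, which specify oligodendrocytes, stood at 0.20 ± 0.122 and 0.11 ± 0.0637 (SE; limma adjusted p = 1 for both), and Olig1 at 0.11 without animal 60. Olig2 read 8.56, 8.37, 8.48, 8.47 and 8.34 in WT and 8.46, 8.55 and 8.64 in Ts1Cje, so the genotypes overlapped although Olig2 was as bright as many members that separated. The 17 oligodendrocyte markers measured outside the segment had a median of 0.06 with 15 above 0, and their mean was 9.61 to 9.88 in WT and 9.70 to 9.93 in Ts1Cje. Runx1, a blood lineage factor, stood at 0.18 and passed in none of these fits.

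**Figure D3:**
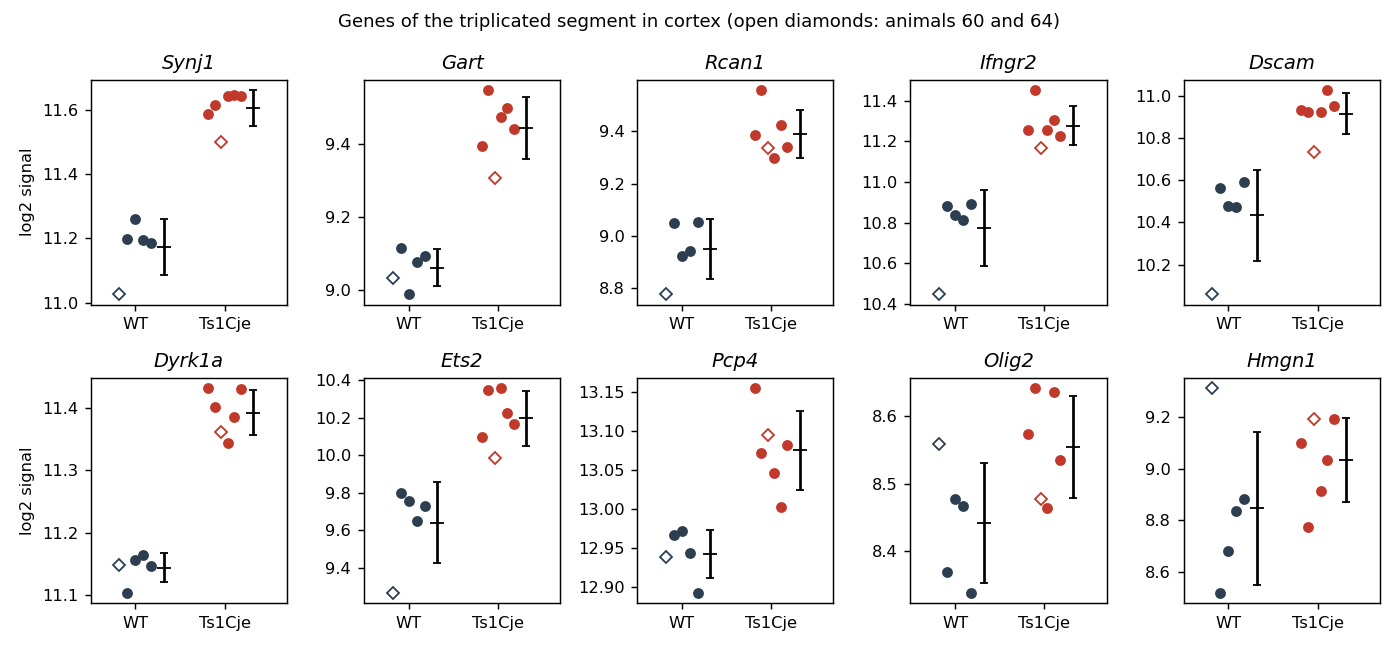
Log2 signal of 10 segment genes in each of the 5 WT and 6 Ts1Cje cortex arrays (points; open diamonds for animals 60 and 64), with the mean and SD of each group as a bar. The first 8 genes do not overlap between genotypes, as in Synj1 with 11.26 as the highest WT and 11.50 as the lowest Ts1Cje value, whereas Olig2 and Hmgn1 overlap.

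The list of 8 chromatin and chromosome members had a median of 0.45, and 1 of them, Hlcs, separated with all arrays (0.232% of genes tested). Hlcs encodes holocarboxylase synthetase, which attaches biotin to metabolic carboxylases, and no other member of the list separated. Brwd1, a bromodomain protein, stood at 0.45 ± 0.128 (SE; limma adjusted p = 1) and rose by 0.40 with array weights (limma adjusted p = 0.0122). Hmgn1 encodes a nucleosome-binding protein and read 9.31, 8.52, 8.68, 8.83 and 8.88 in WT and 8.78, 9.07 and 9.19 in Ts1Cje, a difference of 0.19 ± 0.133 (SE; limma adjusted p = 1). WT animal 60 had its highest value of all, the genotypes overlapped, and the difference was 0.30 without animal 60 and 0.11 without animal 62. The 4 RNA processing members had a median of 0.40. All 4 rose without animals 60 and 64, against 0.148% of genes tested, with Son, a splicing cofactor, at 0.42 ± 0.0464 (SE; limma adjusted p = 0.00516). Among the 10 metabolic and mitochondrial members the median was 0.43 and 9 were above 0. Gart, a trifunctional enzyme of purine synthesis, read 9.03, 9.11, 8.99, 9.07 and 9.09 in WT and 9.30, 9.46 and 9.55 in Ts1Cje, a difference of 0.38 ± 0.0601 (SE; limma adjusted p = 0.188). It did not overlap and rose by 0.40 without animals 60 and 64 (limma adjusted p = 0.00516). Atp5o, a subunit of the mitochondrial ATP synthase, rose by 0.48 in that setting (limma adjusted p = 0.00824), while 28 nuclear genes of oxidative phosphorylation outside the segment had a median of 0.03 with none called.

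Pcp4, a small calmodulin-binding protein, was the brightest member and moved least among the separated ones. It read 12.94, 12.97, 12.97, 12.94 and 12.89 in WT and 13.00, 13.08 and 13.15 in Ts1Cje, a difference of 0.13 ± 0.0514 (SE; limma adjusted p = 1). The groups did not overlap, yet the lowest Ts1Cje value lay 0.031 above the highest WT value, and Pcp4 passed in none of these fits. The antiviral genes Mx1 and Mx2, which interferon induces and which are inactive in many laboratory strains, stood at 0.18 and -0.00. Both were dim, at mean log2 signals of 4.10 and 5.36.

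Distal chromosome 12, to which the extra piece is joined, held the largest rise of all genes tested. Dnah11 encodes a motor protein that drives the beat of motile cilia. It read 7.53, 6.86, 6.78, 6.92 and 6.62 in WT animals 60, 62, 65, 95 and 98, and 9.71, 9.83 and 9.88 as the lowest, median and highest of Ts1Cje, a rise of 2.88 ± 0.136 (SE; limma adjusted p = 3.24e-06). The genotypes lay more than 2 log2 units apart, and the WT spread came mostly from animal 60. Dnah11 rose by 3.03 without animals 60 and 64 and stayed past the threshold when any 1 animal was left out, at 2.79 to 3.02. The 16 markers of ependyma and motile cilia had a median of -0.02 with 6 above 0.

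Distal to Dnah11, Itgb8 encodes the beta 8 integrin, which activates latent TGF-beta, and Tmem196 a transmembrane protein. Itgb8 read 9.72, 10.31, 10.36, 10.36 and 10.35 in WT and 8.75, 9.55 and 9.64 in Ts1Cje, a difference of -0.81 ± 0.174 (SE; limma adjusted p = 0.587). Tmem196 read 9.71, 10.10, 9.92, 9.93 and 9.92 in WT and 9.00, 9.25 and 9.37 in Ts1Cje, a difference of -0.67 ± 0.0851 (SE; limma adjusted p = 0.0577). In both genes the highest Ts1Cje value was under the lowest WT value, a separation found in 15 genes in all (0.0741% of genes tested). Both fell without animals 60 and 64 (0.00988% of genes tested), Itgb8 by 0.80 (limma adjusted p = 0.000152) and Tmem196 by 0.68 (limma adjusted p = 0.000578). With the replicate block both fell as well (0.00988%; limma adjusted p = 0.0114 and 2.82e-05). The 1.76-fold and 1.60-fold lower signals of Itgb8 and Tmem196 fall short of the 2-fold that loss of 1 of 2 copies would give in proportion, and the copy number of these genes was not measured.

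Sp4, a zinc finger transcription factor of neurons that lies next to Dnah11, read 8.02, 8.55, 8.56, 8.72 and 8.71 in WT and 7.82, 8.09 and 8.33 in Ts1Cje, a difference of -0.42 ± 0.138 (SE; limma adjusted p = 1). WT animal 60 overlapped with Ts1Cje, while the 4 other WT animals lay above all 6 of them. Sp4 fell with array weights (0.0247% of genes tested), by 0.47 (limma adjusted p = 0.0144), and did not pass without animals 60 and 64 (limma adjusted p = 0.0969). The remaining 5 of the 9 measured genes from Rapgef5 to the chromosome end were Cdca7l at 0.19, Rapgef5 at -0.02, Macc1 at -0.10, Abcb5 at -0.14 and Sp8 at -0.25, and none of them passed. Without animal 60 Macc1 stood at 0.04, Abcb5 at -0.02 and Sp8 at -0.12, and Cdca7l stood at 0.12 without animal 97.

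Sod1 lies at the edge of the segment and was counted outside it. It read 12.18, 11.28, 11.49, 11.50 and 11.40 in WT animals 60, 62, 65, 95 and 98, and 12.04, 12.13 and 12.57 in Ts1Cje, a difference of 0.62 ± 0.155 (SE; limma adjusted p = 1). WT animal 60 lay among the Ts1Cje animals, whereas the 4 other WT animals lay below all 6. Without animals 60 and 64 Sod1 rose by 0.70 ± 0.0527 (SE; limma adjusted p = 0.000578), and with the replicate block by 0.62 (limma adjusted p = 0.0303). The 26 other genes of superoxide, peroxide and glutathione defence had a median of 0.09 with 22 above 0 and none called, and that median was 0.02 without animal 60. Their mean was 9.10 in WT animal 60, 9.33 to 9.37 in the rest of the WT group, and 9.22 to 9.47 in Ts1Cje.

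**Figure D4:**
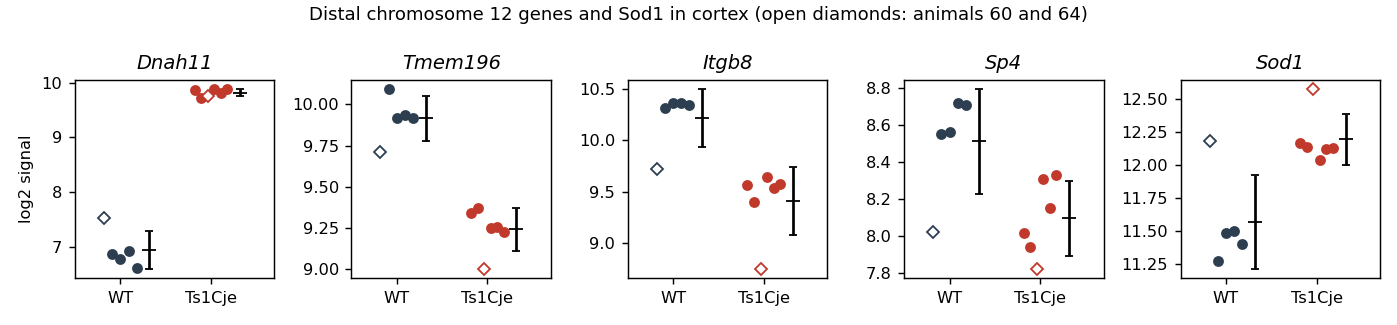
Log2 signal of 4 distal chromosome 12 genes and Sod1 in each of the 5 WT and 6 Ts1Cje cortex arrays (points; open diamonds for animals 60 and 64), with the mean and SD of each group as a bar. Dnah11 is higher and Tmem196 and Itgb8 lower in all 6 Ts1Cje animals, and in Sp4 and Sod1 WT animal 60 (8.02 and 12.18) lies among the Ts1Cje animals.

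Few genes elsewhere in the genome passed in any of these fits. Abca8a, a lipid transporter of the ABC family, read 5.94, 6.07, 6.11, 6.43 and 6.38 in WT and 6.54, 6.66 and 6.93 in Ts1Cje, a difference of 0.54 ± 0.111 (SE; limma adjusted p = 0.549). Cyb5r1, a cytochrome b5 reductase, read 8.04, 8.13, 8.18, 8.03 and 8.09 in WT and 8.31, 8.36 and 8.38 in Ts1Cje, a difference of 0.25 ± 0.0521 (SE; limma adjusted p = 0.549). Neither gene overlapped between genotypes. Abca8a rose with the replicate block (limma adjusted p = 0.0177) and with array weights (0.0462), Cyb5r1 with array weights (0.0155), and neither passed without animals 60 and 64 (0.247 and 0.0713). The unnamed transcript 4930447C04Rik on chromosome 12 rose by 0.57 ± 0.0852 without those animals (SE; limma adjusted p = 0.0361) and not with array weights (0.0898), and stood at 0.29 without animal 60 alone and 0.90 without animal 64 alone. Rfx5, a factor that binds class II histocompatibility promoters, fell by 0.33 with array weights (limma adjusted p = 0.0187), and stood at -0.30 without animals 60 and 64 (0.1). Of genes named for a low p, Lgals3bp, a secreted galectin ligand, stood at 0.48, Adh1, an alcohol dehydrogenase, at 0.31, and the dim genes Cyp3a59 and 1810009J06Rik at -0.92 and -0.90, and none of these 4 passed in any of these fits.

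Interferon acts through the receptors named above, and its target genes are switched on through specific promoter elements. The 42 measured interferon-stimulated genes had a median log2 difference of 0.14 with 36 above 0, against 48.5% of all tested genes. Of the 42, 1 separated the genotypes, Ifi27 (0.232% of genes tested). None of the 42 was called in any of these fits, and 5 had an unadjusted p under 0.05, all higher (0.889% of genes tested). The mean of the 42 was 7.04, 7.20, 7.11, 7.22 and 7.19 in WT and 7.15, 7.30 and 7.47 in Ts1Cje. The genotypes overlapped, with 4 of 6 Ts1Cje animals above all WT animals. The median was 0.15 without animals 60 and 64, and it was 0.08 within the animals numbered 60 to 65 and 0.15 within those numbered 87 to 98. Irf9, the DNA-binding part of the type I interferon complex, read 7.08, 7.54, 7.22, 7.34 and 7.43 in WT and 7.45, 7.69 and 7.96 in Ts1Cje, a difference of 0.37 ± 0.107 (SE; limma adjusted p = 1). Its Ts1Cje values lay above all WT values in 5 of 6 animals.

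Promoter windows of RefSeq GRCm38.p6, from 250 bases before to 50 after a gene's start, were available for 34 of the 42 genes. A gene was counted once if any of its windows held a match. The core of the interferon-stimulated response element, GAAA, any 2 bases and GAAA again on either strand, occurred in 17 of the 34 (50%). This compares with 617 of 15651 tested genes with a window (3.94%) and 0 of 59 segment members with one. The gamma-activated site, TTC and GAA with any 3 bases between, which reads the same on both strands, occurred in 9 of the 34 (26.5%). It occurred in 9.07% of all tested genes with a window and in 10 of the 59 segment members (16.9%). The 250 bases before the start of 3 members are shown for the element that the list shares, with each match, or its reverse complement, in capitals. They are 3 of the 4 members with the lowest p among those with that match and a single window, and were picked after their values were seen. Ifit3 (chr19:34583279-34583528, plus strand) and Ifit1 (chr19:34640639-34640888, plus strand) encode antiviral RNA-binding proteins and hold 2 matches each, and B2m (chr2:122147437-122147686, plus strand), the light chain of class I molecules, holds 1.
Ifit3: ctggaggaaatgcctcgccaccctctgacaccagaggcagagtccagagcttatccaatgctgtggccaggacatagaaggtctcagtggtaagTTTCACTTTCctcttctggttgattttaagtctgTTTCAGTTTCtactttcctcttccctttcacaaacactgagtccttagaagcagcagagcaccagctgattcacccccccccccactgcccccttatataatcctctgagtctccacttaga
Ifit1: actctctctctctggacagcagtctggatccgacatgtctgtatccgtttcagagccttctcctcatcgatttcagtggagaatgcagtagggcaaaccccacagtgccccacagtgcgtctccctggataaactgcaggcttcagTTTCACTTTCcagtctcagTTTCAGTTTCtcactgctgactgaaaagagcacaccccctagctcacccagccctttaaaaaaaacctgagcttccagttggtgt
B2m: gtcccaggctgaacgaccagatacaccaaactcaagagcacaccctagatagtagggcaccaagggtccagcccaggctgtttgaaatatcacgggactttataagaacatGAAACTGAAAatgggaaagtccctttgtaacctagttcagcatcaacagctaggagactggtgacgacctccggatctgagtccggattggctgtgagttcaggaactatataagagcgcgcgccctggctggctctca
Ifit1 read 6.57, 7.14, 6.73, 7.07 and 6.95 in WT and 6.73, 7.30 and 7.78 in Ts1Cje, a difference of 0.39 ± 0.176 (SE; limma adjusted p = 1). Ifit3 stood at 0.35 ± 0.216 and B2m at 0.26 ± 0.199 (SE; limma adjusted p = 1 for both). All 3 overlapped between genotypes, and WT animal 60 had the lowest value of Ifit3 (6.64) and of B2m (10.69). Without animal 60 alone Ifit3 stood at 0.15 and B2m at 0.09. Without animals 60 and 64 B2m stood at 0.22, and all its Ts1Cje values lay above all WT values (1.36% of genes tested). A match is a description of the letters and not a shown binding site.

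Class I histocompatibility genes, which present peptides to T cells and respond to interferon, had a median of 0.05 over 10 measured genes, with 7 above 0. The classical genes were the highest of them. H2-K1 read 7.08, 7.94, 7.31, 8.36 and 8.13 in WT and 8.13, 8.46 and 8.66 in Ts1Cje, a difference of 0.65 ± 0.218 (SE; limma adjusted p = 1). H2-D1 read 8.00, 8.07, 7.69, 8.53 and 8.29 in WT and 8.36, 8.66 and 9.16 in Ts1Cje, a difference of 0.58 ± 0.179 (SE; limma adjusted p = 1). WT animals spread by more than 1 log2 unit in H2-K1, and both genes overlapped between genotypes. They stood at 0.47 and 0.46 without animals 60 and 64, and the median of the list was 0.00. Arrays probing such near-identical genes can share signal between them.

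Immediate early genes are switched on within minutes of neuronal activity, many of them through CREB and serum response factor. The 28 measured members had a median of 0.18 with 25 above 0, none separated the genotypes and none was called in any of these fits. The mean of the list was 8.36, 8.33, 8.21, 8.57 and 8.88 in WT and 8.51, 8.69 and 8.88 in Ts1Cje. WT animal 98 matched the highest Ts1Cje animal, while the 3 WT animals numbered 60 to 65 lay below all Ts1Cje animals. The median was 0.24 within animals 60 to 65 and 0.05 within animals 87 to 98, with 26 and 17 of 28 above 0. Npas4, an activity-dependent transcription factor, read 8.65, 8.37, 7.51, 9.07 and 9.09 in WT and 8.93, 9.31 and 9.52 in Ts1Cje, a difference of 0.72 ± 0.253 (SE; limma adjusted p = 1). Arc, a synaptic protein, stood at 0.52 ± 0.3, Egr2 at 0.63 ± 0.272, Fos at 0.47 ± 0.309 and Egr1 at 0.29 ± 0.135 (SE; limma adjusted p = 1 for each). Each of these 5 genes overlapped between genotypes. Without WT animal 65 Npas4 stood at 0.46, Fos at 0.30 and Egr1 at 0.18, and without WT animal 98 Arc stood at 0.79 and Fos at 0.72. The cyclic AMP response element, TGAC followed by GTCA, reads the same on both strands. It occurred in 3 of the 21 list members with a promoter window (14.3%), against 2.66% of all tested genes with one. The CArG box, to which serum response factor binds, occurred in 1 of the 21 (4.76%), against 1.61% of all. Elements of the interferon pathway were found in windows of these 21 members too, the core of the interferon-stimulated response element in 4 of 21 (19%) and the gamma-activated site in 3.

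Markers of striatal neurons were above 0 in 13 of 13 genes, with a median of 0.16, and none was called. Their mean was 9.88, 9.68, 10.02, 10.11 and 9.45 in WT and 9.90, 9.97 and 10.11 in Ts1Cje. WT animals 98 and 62 were the lowest. The median of the list was 0.02 without animal 98, 0.10 without animal 62 and 0.09 without animal 64. It was 0.18 without animals 60 and 64. Drd2, a dopamine receptor of these neurons, read 10.52, 10.05, 10.39, 10.46 and 9.70 in WT and 10.30, 10.40 and 10.54 in Ts1Cje, so that the genotypes overlapped. Markers of the choroid plexus, which makes cerebrospinal fluid, had a median of -0.02 with 5 of 13 above 0, and 2 of the 13, Clic6 and Kcne2, lie in the segment. Their mean ranged from 6.82 to 7.86 in WT and from 6.73 to 7.96 in Ts1Cje, and Ttr, its defining transcript, from 8.29 to 12.60 and from 8.01 to 12.47. Its spread within a genotype was over 4 log2 units, and the part of these tissue markers in the other results was not tested. Interneuron markers had a median of 0.10, microglial markers 0.09, and markers of astrocytes -0.02 and of endothelium 0.07, with none called in any of these fits. Leaving out 1 animal took the interneuron median to 0.03 and the endothelial median to 0.01, both without animal 60. It took the microglial median to 0.05 without animal 87, and the astrocyte median ranged from -0.06 to 0.02. Without animals 60 and 64 the interneuron, microglial, astrocyte and endothelial medians were 0.07, 0.10, -0.02 and 0.06.

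**Figure D5:**
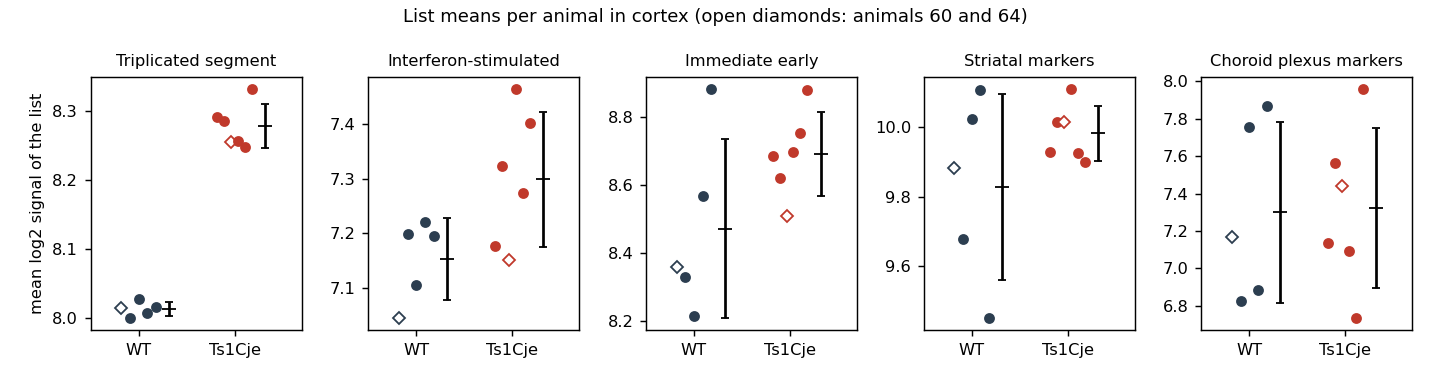
Mean log2 signal of the members of 5 gene lists in each of the 5 WT and 6 Ts1Cje cortex arrays (points; open diamonds for animals 60 and 64), with the mean and SD of each group as a bar. The segment means separate completely, at 8.00 to 8.03 against 8.25 to 8.33, while the interferon-stimulated, immediate early, striatal and choroid plexus means overlap between genotypes.

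The genotype difference in cortex was set against that in the hippocampus of the same animals by an interaction term over 22 arrays. None of 20239 genes passed (limma adjusted p under 0.05), and 260 had an unadjusted p under 0.05 (1.28%), which does not show that the regions respond alike. Dnah11 differed by -0.24 ± 0.159 (cortex minus hippocampus, SE), Tmem196 by -0.27 ± 0.0969, Itgb8 by -0.00 ± 0.22 and Sod1 by -0.12 ± 0.191 (limma adjusted p = 1 for each). Among segment members, Synj1 differed by 0.02 ± 0.0758, Dscam by 0.01 ± 0.114 and Ifngr2 by 0.15 ± 0.107 (SE; limma adjusted p = 1 for each). These errors, from 0.0758 to 0.22, take the 22 arrays as unpaired, although each animal gave both. With the animal as a replicate block the errors of these 7 genes ran from 0.0545 to 0.147, none of 20239 genes passed, and 912 had an unadjusted p under 0.05 (4.51%). Tmem196 had the lowest p of the 7 in that fit, with an error of 0.0732 (limma adjusted p = 0.882).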

How the data were processed

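The analysis used cortex and hippocampus RNA arrays (Affymetrix mouse gene 1.0 ST, biotin-labelled total RNA, integrity number above 9 and different extraction kits for the regions, per the labels' protocols). The authors deposited log2 signals, 1 per array for each of 21225 features keyed by Entrez number, made with RMA per the submitters' processing notes. RMA corrects background, normalizes arrays and summarizes probes, and it can compress folds of dim genes. For its version, the probe definition, the genome build and the joint or separate normalization of regions, the sources used here say nothing. Arrays have no read depth, and their number limits the precision. Names came from the platform annotation and the RefSeq GRCm38.p6 gene table, the latter also giving the gene order. Tests covered the 20239 features with 1 symbol and left out 986 without any, and no feature had several. No filter was applied to dim genes.

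Genotype was fitted in the 11 cortex arrays with limma (version 3.58.1, under R 4.3.3; its lmFit and eBayes steps, two-sided, Benjamini-Hochberg adjustment over 20239 genes, adjusted p under 0.05). The interaction was fitted on 22 arrays. The steps were tested on simulated data. Where nothing is said of a fit in the text, all 11 arrays entered with equal weight. Lists are described by counts and medians, with no test of the list. The labels say that samples are separate animals. Promoter windows were searched for fixed letters on both strands.

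Named genes were the segment members fixed by role and the 8 with the lowest p, all measured distal chromosome 12 genes, Sod1, Tiam1, every gene called with all arrays or without animals 60 and 64, the 6 next in each of these fits, up to 2 members of each pathway list and 1 of each marker list by p, and H2-K1, H2-D1, Ifit3, Fos, Arc, Egr1, Egr2 and Npas4, of which those the results turn on are given. A further gene of the rule is not reported here. Other names were picked after their values were seen. Members, lists, the rule and the alternatives (the variance prior, array weights, normalization, centring, the filter on dim genes, the features tested, the threshold, the arrays in the fit, the replicate block and the animals left out) were chosen with earlier results of these data known.

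Pairing comes from the labels, which give cortex and hippocampus arrays the same animal number. With group means removed, an animal's arrays correlated at a median r of 0.265 (0.0523 to 0.761), over 0.1 for 9 of 11 animals, and the block fit gave a consensus correlation of 0.436. Within cortex the highest r between arrays was 0.998, and none were identical.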

Additional observations from a re-analysis of the deposited data

Results flagged for a closer look

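In 60 of 200 sets of values, each 1 gene or list in 1 genotype of the cortex, the highest or lowest animal lay far from the others, where chance flags about 1 in 20. WT animal 60 and Ts1Cje animal 64 made all of these but Cdca7l, low in WT animal 62 (6.20, the highest of its group being 6.55), and the ependymal marker mean, high in Ts1Cje animal 97 (6.79). The part of RNA quality or hybridization in these values was not tested.

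WT animal 60 read highest of its group for Abcb5, Macc1, Ripk4, Sh3bgr and Sod1 and lowest for the other genes given here. In the segment its values were 8.99 for Ifnar1, 8.51 for Ifnar2, 10.45 for Ifngr2, 7.49 for Il10rb, 10.06 for Dscam, 9.27 for Ets2, 9.17 for Olig1, 8.37 for Brwd1, 10.14 for Son, 8.30 for Atp5o, 8.71 for Vps26c, 6.38 for Ripk4 and 6.65 for Sh3bgr. On chromosome 12 and at Sod1 they were 9.72 for Itgb8, 8.02 for Sp4, 9.67 for Rapgef5, 5.20 for Abcb5, 4.52 for Macc1, 5.82 for 4930447C04Rik and 12.18 for Sod1. Elsewhere they were 10.69 for B2m, 8.55 for Kremen1, 10.38 for Rcan2 and 8.70 for Stim1.

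Ts1Cje animal 64 read highest of its group for Macc1, Ripk4 and Sod1 and lowest for the other genes given here. Its values were 9.46 for Ifnar1, 8.02 for Il10rb, 10.74 for Dscam, 9.12 for Atp5o, 9.04 for Vps26c, 8.86 for Slc5a3, 7.11 for Dnajc28, 6.46 for Mis18a and 6.04 for Ripk4. It read 8.75 for Itgb8, 9.81 for Rapgef5, 4.38 for Macc1, 6.34 for 4930447C04Rik and 12.57 for Sod1. Its other values of this kind were 10.02 for Tiam1, 10.98 for B2m, 6.64 for Plag1 and 8.54 for Rcan3.

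The same animals lay apart in list means. For the brighter segment members animal 60 stood at 9.04 and animal 64 at 9.47, and for the dimmer ones animal 60 stood at 6.51. For the 2-copy genes of chromosome 16 animal 60 had a mean of 7.46, and for the 20 genes next to Sod1 animals 60 and 64 had 5.55 and 5.41. In animals 60 and 64 the means were 10.23 and 10.24 for oxidative phosphorylation, 10.11 and 10.12 for potassium channels, and 10.23 and 10.20 for glutamate receptors. Animal 60 had 9.10 for superoxide, peroxide and glutathione defence and 10.51 for astrocyte markers, and animal 64 had 9.60 for heat shock and the unfolded protein response and 9.70 for oligodendrocyte markers. No genotype difference was found to differ between cortex and hippocampus by the interaction test.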

How the results depend on the processing

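The number of genes called was 1 with all 11 arrays and moved with most alternatives. It was 50 with array weights (38 in the segment, 4 on distal chromosome 12, 12 outside the segment) and 32 without animals 60 and 64 (27, 3 and 5). With the animal as a replicate block it was 23 (18, 3 and 5), with a single fit on 22 arrays 23 (19, 3 and 4), and with quantile normalization 12 (9, 3 and 3). It was 3 (1, 2 and 2) with a trend and a robust prior, with the dimmest genes left out, and with an adjusted p under 0.1. Leaving out 1 animal gave 1 to 7 genes called, 0 to 5 of them in the segment, 1 to 2 on distal chromosome 12 and 1 to 2 outside the segment, with 2 genes without animal 60 and 7 without animal 64. Segment genes with all Ts1Cje above all WT animals numbered 45 without animals 60 and 64 and 24 to 44 when 1 animal was left out, the highest without animal 64. The segment median of 0.34 was 0.31 with array weights and without animals 60 and 64, 0.40 with the dimmest genes left out, and 0.29 to 0.36 when 1 animal was left out. Centring arrays or testing every feature moved none of these counts by over 1.5 times. The interaction between regions gave 0 calls in each alternative run. Among 74 named genes the direction changed for 7. Mx2 stood at 0.10 with array weights, 0.061 with quantile normalization, 0.16 without animals 60 and 64, and -0.076 to 0.084 when 1 animal was left out. Sh3bgr stood at 0.059, 0.0056 and 0.055 in the same settings and at -0.15 to 0.17 when 1 animal was left out. In that last setting Rapgef5 ranged from -0.12 to 0.030, Kcne2 from -0.19 to 0.044, Macc1 from -0.19 to 0.037 and Ripk4 from -0.25 to 0.094. Ttr stood at 0.53 with all arrays, -0.52 with array weights and -0.079 without animals 60 and 64. The causes of these changes were not tested. No gene called in any of these settings changed direction. No background level of the arrays was used here, so which dim genes lie above it was not tested.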

Other observations

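Genes outside the segment and chromosome 12 that passed only with array weights were looked at after their values were seen. Kremen1, a receptor for Dickkopf proteins, which antagonize Wnt signalling, read 8.55, 8.73, 8.71, 8.72 and 8.71 in WT and 8.76, 8.96 and 9.14 (lowest, median and highest) in Ts1Cje, and stood at 0.27 ± 0.0751 with all arrays weighted equally (SE; limma adjusted p = 1) and 0.30 ± 0.0465 with array weights (0.0154). Stim1, a calcium sensor of the endoplasmic reticulum, read 8.70, 8.98, 8.95, 8.94 and 8.96 in WT and 9.02, 9.13 and 9.18 in Ts1Cje (0.18 ± 0.0332 with array weights; limma adjusted p = 0.0494). The lowest Ts1Cje value exceeded the highest WT value in both. Plag1, a zinc finger factor, rose by 0.27 with array weights (limma adjusted p = 0.0436), and Trav13n-4, a dim T cell receptor segment, fell by 0.62 (0.0162), while neither separated the genotypes. None of these 4 passed without animals 60 and 64.

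Several other gene groups that fit the tissue held medians near that of all genes. The 23 glutamate receptor genes had a median of -0.02 with 9 above 0. Of the 23, 1 lay lower in all 6 Ts1Cje animals (0.0741% of genes tested). It was Grin2c, a subunit of NMDA receptors (-0.19 ± 0.0592, SE; limma adjusted p = 1). The 17 circadian clock genes stood at 0.03, the 25 of sonic hedgehog and Wnt signalling at 0.02, and the 18 genes of heat shock and the unfolded protein response at 0.02. No member of these groups was called with all arrays, without animals 60 and 64, with array weights or with the replicate block.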
